A study of Mus musculus with 16 samples.

Results

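The comparison described here is that of mouse TCF1+CD8+ T cells that were exposed to prostaglandin E2 (PGE2) and then kept in interleukin-2 (IL-2) alone with cells that had IL-2 alone and no PGE2. Its members were taken by label, 4 PGE2-treated and 4 untreated samples, which are 8 of the 16 samples of the series. Bulk RNA sequencing gave a read count for every gene in each sample. Naive CD8+ T cells from spleens of C57BL/6J mice were activated repeatedly with anti-CD3/CD28 beads and low-dose IL-2 in culture over 4 days. This procedure gives TCF1+CD8+ T cells, in which the transcription factor TCF1 marks a stem-like state. They were then held for 1 h with PGE2 at 100 ng/ml or without it, and for a further 4 h in a low dose of IL-2 of 85 U/ml. The other 8 samples had the same pretreatments and the same IL-2 with anti-CD3/CD28 beads added at 1 bead per cell. The comparison described here is therefore the effect of PGE2 without bead restimulation, in cells that beads had activated during culture. None of the samples was labelled as receptor-deficient or inhibitor-treated. The labels number the replicates of each group from 1 to 4 and do not say whether these were separate mice or cultures, so the p values measure only the spread between these samples, which may be technical.

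PGE2 is a lipid mediator that many tumours release. T cells sense it mainly through the receptors EP2 and EP4 (encoded by *Ptger2* and *Ptger4*), which couple to Gs proteins, activate adenylyl cyclases and raise cyclic AMP (cAMP). cAMP activates protein kinase A, which phosphorylates CREB-family transcription factors, and it is removed by phosphodiesterases, some of which are themselves induced by the pathway. IL-2 signals through a receptor of several chains to JAK kinases and STAT5 and maintains growth, MYC expression and ribosome production in activated CD8+ T cells.

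The samples held 22678254 to 36098297 counted reads each. Values are given in CPM, the count of a gene relative to the total of its library after TMM scaling, in the order of replicates 1 to 4. Fold changes are PGE2 over untreated on the log2 scale with their standard error, and adjusted p values are from edgeR's quasi-likelihood test with Benjamini-Hochberg adjustment over the 14505 genes tested. A gene with an adjusted p below 0.05 and a change of at least 2-fold is called a differentially expressed gene (DEG). Counts and p values named as those of the paired fit come from the same test with the replicate number as a block. Where a gene has a single CPM for each group, it is the mean of 4 samples.

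The samples carried the markers of T cells. *Cd3e*, a chain of the CD3 complex, was at 338, 347, 339 and 308 CPM in untreated cells and 354, 342, 344 and 329 CPM with PGE2, and *Tcf7*, which encodes TCF1, was at 1533, 1271, 1154 and 955 CPM and 1585, 1324, 1136 and 977 CPM. *Tcf7* differed by 0.03 ± 0.16 on the log2 scale (adjusted p = 0.91), and in both groups it was highest in replicate 1 and lowest in replicate 4. The CD8 chains fell slightly: *Cd8a* was at 1042, 1081, 1023 and 982 CPM without PGE2 and 775, 782, 782 and 711 CPM with it, a log2 fold change of -0.44 ± 0.06 (adjusted p = 2.82e-04), and *Thy1* fell by 0.56 (adjusted p = 6.44e-05). In bulk RNA, fewer cells of a type and less RNA per cell cannot be told apart. Of the 12 T cell identity genes, 6 passed the test as lower (*Cd8a*, *Cd8b1*, *Cd2*, *Cd5*, *Lck* and *Thy1*), against 15.5% of all genes tested, and none as higher. None of the 12 was a DEG. Their summed level was 5605 to 6510.0 CPM in untreated and 4779 to 5285 CPM in PGE2-treated samples, so the groups did not overlap.

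Markers of other cells were low on the myeloid and erythroid lists, while some members of other lists were higher. *H2-Ab1* of the dendritic list averaged 17.3 CPM untreated and 25.1 CPM with PGE2. *Cd79b* of the B cell list averaged 13.8 and 9.74 CPM. On the list for CD4+ and regulatory T cells, *Zbtb7b* averaged 25.2 and 29.0 CPM and *Foxp3* 6.19 and 5.82 CPM. The summed CPM of 10 myeloid markers was 3.79 to 5.33 in untreated and 4.41 to 7.34 in PGE2-treated samples, with *S100a8*, *S100a9* and *C1qa* at 0 in every sample, and 6 erythroid markers summed to at most 0.725 CPM. Of the natural killer markers, *Ncr1* and *Klra8* were at 0 in every sample. The sum of that list, 209 to 251 CPM against 118 to 129 CPM, was made up almost wholly of *Nkg7* and *Eomes*, which CD8+ T cells also express. Replicate 3 of both groups held more *Cd4* (0.183, 0.0697, 1.19 and 0.0315 CPM untreated, 0.470, 0.08997, 2.03 and 0.109 CPM with PGE2) than the other replicates. These sums did not separate the groups for the B cell, myeloid and dendritic lists, and their part in the results was not tested.

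Replicates differed along an axis that the groups shared. Deviations from the group mean were correlated between same-numbered samples (Pearson's r of 0.150 to 0.477 across genes for the 4 pairs). Several genes of T cell activation were highest in replicate 4 of both groups. *Cd69*, the early activation marker, was at 39.4, 39.7, 40.9 and 52.4 CPM in untreated and 29.4, 28.6, 29.3 and 38.7 CPM in PGE2-treated cells, so that the highest treated sample nearly reached the lowest untreated one, although each treated sample was below its numbered partner.

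PGE2 changed the expression of many genes in cells that had IL-2 alone. Of the 14505 genes, 211 (1.45%) were DEGs with higher and 279 (1.92%) with lower expression, 3.38% in all. The rises were concentrated in genes of low expression: 104 of the 211 had an untreated mean below 1 CPM, and their median untreated level was 1.08 CPM against 6.502 CPM for the DEGs that fell and 21.1 CPM for all genes tested. Changes of at least 4-fold were found for 36 genes that rose and 22 that fell. By adjusted p alone 28.4% of genes differed (12.9% higher, 15.5% lower), and the paired fit called 47.8% (23.6% higher, 24.2% lower), so smaller shifts were widespread. These shares are the background against which the counts in each gene list below stand. The lists were chosen with earlier results of these data known, so their counts are descriptions only. In 29.5% of genes the values of either group all lay above those of the other. This separation was met by 187 of the 211 DEGs that rose and by 260 of the 279 that fell. The median change over all genes was -0.00. Without both libraries numbered 4 there were 211 DEGs with higher and 282 with lower expression.

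**Figure D1:**
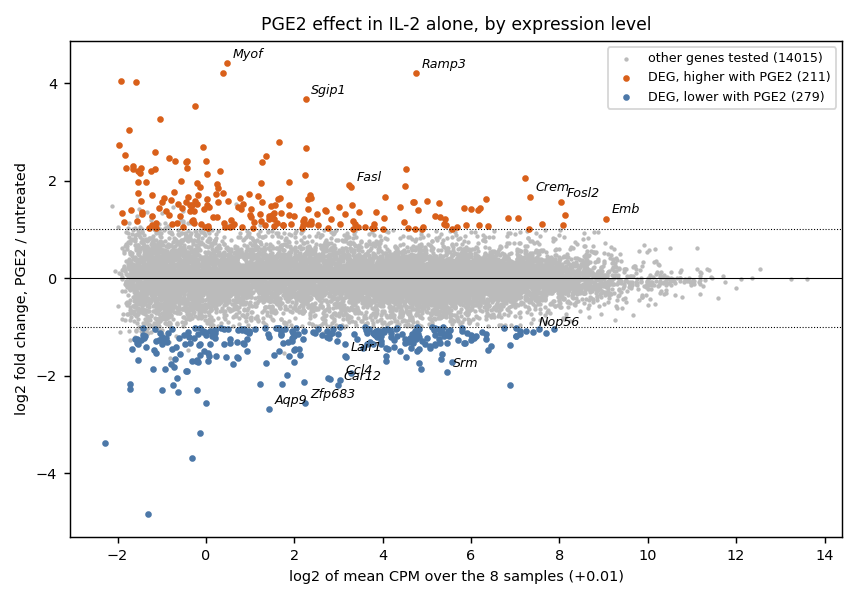
Log2 fold change of each of the 14505 genes tested (PGE2 over untreated, IL-2 alone; vertical axis) against the log2 of its mean CPM over the 8 samples (horizontal axis); coloured points are the 211 DEGs that were higher and the 279 that were lower with PGE2, and dotted lines mark a 2-fold change. The highest orange points lie at the low-expression end, apart from *Ramp3*, while many of the blue points lie at middle expression levels.

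Of the PGE2 receptors, *Ptger4*, which encodes EP4, was at 33.5, 33.0, 36.2 and 36.7 CPM in untreated cells and 24.5, 24.0, 22.0 and 23.7 CPM after PGE2. Every treated sample was below every untreated one, a log2 fold change of -0.57 ± 0.07 (adjusted p = 1.01e-04). *Ptger2*, which encodes EP2, went from 6.67, 6.13, 7.04 and 5.89 CPM to 8.39, 7.86, 8.35 and 8.07 CPM, a rise of 0.34 ± 0.10 (adjusted p = 0.0269) with no overlap between the groups. That call was lost when untreated replicate 2 or 4 or PGE2 replicate 1 or 3 was left out (adjusted p = 0.0685, 0.0717, 0.0508 and 0.0664). In the paired fit the adjusted p of *Ptger2* was 0.00518. *Abcc4*, a transporter that exports PGE2 and cyclic nucleotides, fell from 35.2, 34.1, 31.3 and 29.3 CPM to 21.2, 18.8, 16.3 and 16.6 CPM, by 0.83 ± 0.10 (adjusted p = 1.01e-04). Of the 15 genes listed for prostanoid reception and handling, 7 were expressed highly enough to be tested, 1 rose and 2 fell, and none was a DEG. *Ptgs2*, the inducible cyclooxygenase, and *Hpgd*, which degrades PGE2, were not among those tested.

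The cAMP machinery shifted in single components. *Rapgef3*, which encodes the cAMP-activated exchange factor EPAC1, rose from 1.46, 1.88, 2.17 and 2.11 CPM to 3.44, 5.58, 7.46 and 5.24 CPM, 2.83-fold higher (adjusted p = 6.05e-04). *Akap1*, which anchors protein kinase A at mitochondria, fell from 25.8, 28.5, 21.4 and 25.4 CPM to 8.43, 8.40, 9.10 and 11.1 CPM, by 1.44 ± 0.12 (adjusted p = 1.06e-05). In both genes the groups were apart. Of 19 tested genes of the list, 2 rose and 5 fell by adjusted p (6 and 6 in the paired fit). The others that passed were the regulatory subunits *Prkar2a* (-0.55) and *Prkar2b* (-0.49), the cyclase *Adcy6* (-0.36) and the anchor *Akap8* (-0.26), all lower, and the catalytic subunit *Prkaca* (0.29), which was higher.

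Of 9 phosphodiesterase genes tested, 8 had a higher mean with PGE2 and 4 passed the test as higher (6 in the paired fit), with a list median of 0.45 against -0.00 over all genes. *Pde4d* was at 143, 134, 126 and 124 CPM without and 219, 194, 172 and 172 CPM with PGE2, a log2 fold change of 0.52 ± 0.08 (adjusted p = 8.29e-04). *Pde4b* was at 72.5, 70.2, 66.7 and 61.1 CPM and 102, 94.3, 93.1 and 81.0 CPM, a change of 0.45 ± 0.08 (adjusted p = 0.00124). Both encode enzymes that hydrolyse cAMP, and neither had an overlap between groups. *Pde8a*, for a cAMP-specific enzyme of high affinity, rose from 11.2, 11.1, 10.5 and 9.61 CPM to 28.4, 22.9, 18.1 and 15.7 CPM (1.00 ± 0.16, adjusted p = 9.10e-04). It stood at the 2-fold threshold and fell below it in the paired fit, at 0.96. It also fell below it without untreated replicate 3, narrowly, or without untreated replicate 4 or PGE2 replicate 1 or 2, at 0.95, 0.83 and 0.98. *Pde4c* was the member that fell, from 2.42, 3.87, 3.77 and 3.40 CPM to 1.09, 1.59, 2.27 and 1.71 CPM (-1.01 ± 0.23, adjusted p = 0.00706). Without untreated replicate 2 or 3 or PGE2 replicate 1 or 2 its fall was under 2-fold, at -0.93, -0.96, -0.87 and -0.98.

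Genes of the CREB family and its known targets were among those that rose. Of 27 tested, 11 rose and 1 fell by adjusted p (19 and 1 in the paired fit), and 4 were DEGs, all higher. The list median was 0.40. *Crem*, for a cAMP-inducible member of the CREB family that includes repressor forms, was at 56.4, 66.7, 86.4 and 99.2 CPM in untreated and 224, 243, 269 and 248 CPM in PGE2-treated cells, 3.18-fold higher (1.67 ± 0.15, adjusted p = 1.81e-05). *Fosl2*, which encodes the AP-1 subunit FRA2, rose from 98.1, 109, 161 and 165 CPM to 432, 381, 400.5 and 362 CPM (1.56 ± 0.16, adjusted p = 3.63e-05). Within untreated cells replicates 3 and 4 were the higher ones for both genes, whereas *Fosl2* with PGE2 was highest in replicate 1. *Rgs2*, which limits signalling from G proteins, rose from 6.35, 6.59, 11.1 and 14.5 CPM to 28.7, 31.6, 41.8 and 42.2 CPM (1.89 ± 0.24, adjusted p = 1.80e-04). *Klf4*, for a Krüppel-like factor linked to T cell quiescence, was low throughout, at 0.777, 0.906, 1.07 and 1.58 CPM and 1.37, 1.89, 3.70 and 4.78 CPM (1.43 ± 0.38, adjusted p = 0.0164), and its groups overlapped. The salt-inducible kinase genes *Sik1* (0.85) and *Sik3* (0.62), the clock gene *Per1* (0.51), the phosphatase *Dusp1* (0.49), *Btg2* (0.40) and *Gadd45a* (0.86) also rose, each by less than 2-fold, and *Creb1* itself fell by 0.24.

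The NR4A orphan receptors, further known CREB targets that also follow T cell receptor signals, did not pass the unpaired test. *Nr4a1* was at 63.2, 61.3, 91.6 and 113 CPM and 72.9, 59.2, 73.8 and 109.7 CPM (-0.06 ± 0.22, adjusted p = 0.864; paired fit, 0.436). *Nr4a3* was at 45.3, 53.5, 81.3 and 131 CPM and 85.8, 83.8, 98.6 and 143 CPM, a difference of 0.40 ± 0.29 (adjusted p = 0.351), and *Nr4a2* differed by 0.41 ± 0.32 (adjusted p = 0.388). For the last pair replicate 4 was highest in both groups, each treated sample exceeded its numbered partner, and the paired fit gave adjusted p of 2.68e-04 and 8.90e-05. Without untreated replicate 4 *Nr4a3* was called, at 0.77 (adjusted p = 0.0266).

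Over the whole list of AP-1, BATF, EGR and NR4A factors, 1 of 18 tested genes rose and 4 fell (8 and 6 in the paired fit). *Batf3*, a partner of JUN proteins, went from 2.88, 5.40, 6.30 and 8.92 CPM to 1.05, 1.71, 2.36 and 3.48 CPM (-1.44 ± 0.37, adjusted p = 0.0124), lower in all 4 pairs with overlap between groups. *Egr3*, an immediate early gene of T cell receptor signalling, went from 21.6, 20.1, 19.6 and 35.6 CPM to 9.15, 7.68, 6.71 and 22.6 CPM (-1.07 ± 0.35, adjusted p = 0.0408). The groups overlapped in *Egr3*, as PGE2 replicate 4 exceeded the 3 lowest untreated samples. Each treated sample was below its numbered partner, and the paired fit gave *Egr3* an adjusted p of 2.08e-07. Its call was lost without any one of the libraries other than PGE2 replicate 4 (adjusted p of 0.0535 to 0.117) and with DESeq2 (adjusted p = 0.0703). *Egr1* fell by 0.99 (adjusted p = 0.00103) and *Nab1*, for a corepressor of EGR proteins, by 0.32 (adjusted p = 0.0023).

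**Figure D2:**
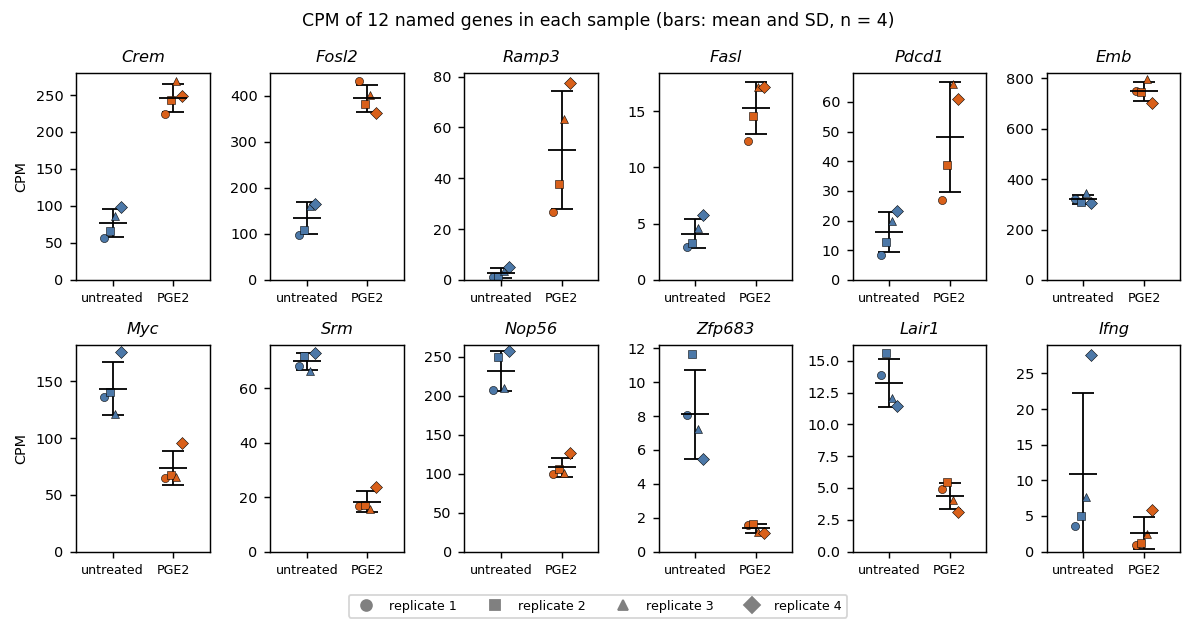
CPM (vertical axes, linear, from 0) of 12 genes in each of the 4 untreated (blue) and 4 PGE2-treated (orange) samples; the symbol gives the replicate number, and bars show the mean and SD of 4 samples. The groups are apart in all genes shown other than *Ifng*, where untreated replicate 4 (27.6 CPM) lies far above the other untreated samples.

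Feedback regulators of receptor signalling rose in part. In the list of RGS, DUSP and Sprouty genes 6 of 20 rose and 2 fell (8 and 6 in the paired fit), and the median was -0.04, a value that turned positive without untreated replicate 2 (0.002) or 4 (0.04) or PGE2 replicate 2 (0.06). Besides *Rgs2* and *Dusp1*, the MAP kinase phosphatases *Dusp5* (79.6 to 146 CPM, 0.87) and *Dusp10* (0.66), *Spred2* (0.43) and *Rgs1* rose. *Rgs1*, which dampens chemokine receptor signals, was at 33.6, 33.7, 43.7 and 51.5 CPM and 50.002, 49.8, 56.0 and 56.5 CPM (0.38 ± 0.13, adjusted p = 0.0409). That call was lost without any single library other than untreated replicate 4 and PGE2 replicate 1 (adjusted p of 0.0501 to 0.0995), with upper-quartile scaling (0.0517) and in the fit over 16 samples (0.165); the paired fit gave 5.82e-05.

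The 12 largest rises (DEGs averaging 1 CPM or more whose groups did not overlap) included genes that were nearly silent in untreated cells. *Myof* (chromosome 19, positions 37899036 to 38043577, GRCm38), which encodes the membrane protein myoferlin, was at 0.183, 0, 0.0594 and 0.252 CPM without PGE2 and 3.33, 2.31, 2.57 and 2.45 CPM with it (4.41 ± 0.46, adjusted p = 4.71e-05). *Ramp3* (chromosome 11, positions 6658521 to 6677475), for a protein that modifies receptors of the calcitonin family, went from 1.10, 1.01, 3.51 and 5.04 CPM to 26.8, 37.5, 63.1 and 77.5 CPM (4.21 ± 0.46, adjusted p = 7.05e-05). It was the most strongly expressed of the genes that rose at least 10-fold under this rule, and in both groups its values in replicates 3 and 4 exceeded those in replicates 1 and 2. *Eml1*, for a microtubule-associated protein, went from 0.183, 0.0349, 0.238 and 0.0630 CPM to 1.88, 2.01, 2.71 and 3.18 CPM (4.21 ± 0.40, adjusted p = 2.97e-05). *Sgip1* (chromosome 4, positions 102741297 to 102973628), for an adaptor in endocytosis, went from 0.229, 0.871, 1.01 and 0.567 CPM to 7.20, 9.51, 10.6 and 8.21 CPM (3.67 ± 0.29, adjusted p = 8.11e-06). Untreated values of *Myof* and *Eml1* rested on few reads, so the sizes of their fold changes are uncertain. Without untreated replicate 4 the log2 fold change of *Myof* was 5.13.

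*Gng4*, for a G protein gamma subunit, rose from 0.594, 0.906, 1.75 and 1.86 CPM to 8.07, 8.94, 8.53 and 7.91 CPM (2.66 ± 0.26, adjusted p = 3.50e-05). *Rgs9*, for another accelerator of G protein inactivation, rose from 0.320, 0.593, 1.19 and 0.882 CPM to 2.97, 4.08, 4.12 and 4.92 CPM (2.38 ± 0.30, adjusted p = 1.84e-04). Separation of the groups was part of the rule that chose both. *Ntn1*, for the guidance cue netrin-1, rose by 2.51 ± 0.23, *Ypel4* by 2.79 ± 0.31, *Siah3* by 2.12 ± 0.21 and *Myo1d*, for an unconventional myosin, by 2.20 ± 0.33, with adjusted p of at most 5.65e-04. *Tg*, named for thyroglobulin, the precursor of thyroid hormones, was at 3.79, 5.51, 8.17 and 14.3 CPM and 19.9, 29.1, 46.3 and 56.4 CPM (2.23 ± 0.39, adjusted p = 0.00139). *Dgat1*, for the last step of triglyceride synthesis, was the rise of this size at the highest level, from 39.6, 52.9, 72.1 and 64.4 CPM to 198, 237, 281 and 246 CPM (2.07 ± 0.17, adjusted p = 1.004e-05).

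Among the 8 most abundant DEGs that rose, most had smaller folds than these. *Emb* (chromosome 13, positions 117208536 to 117274415), which encodes embigin, a chaperone of monocarboxylate transporters, went from 320.1, 310.3, 346 and 306 CPM to 749, 746, 796 and 702 CPM (1.22 ± 0.06, adjusted p = 2.21e-06). *Neurl3*, for an E3 ubiquitin ligase, went from 147, 156, 184 and 163 CPM to 404, 415, 419 and 361 CPM (1.30 ± 0.08, adjusted p = 2.98e-06). *Camk4*, for a calcium- and calmodulin-dependent kinase that can phosphorylate CREB-family proteins, went from 169, 169, 173 and 178 CPM to 394, 369, 375 and 339.5 CPM (1.10 ± 0.06, adjusted p = 2.21e-06). The groups were far apart in each of these genes, whose standard errors were 0.06 to 0.08. *Lyst*, for a regulator of lysosome size, was at 151, 137, 109 and 96.6 CPM and 391, 292, 209.9 and 167 CPM (1.10 ± 0.23, adjusted p = 0.00445). Replicates 1 and 2 were the higher ones in both groups, and the rise was below 2-fold without PGE2 replicate 1 (0.85). *Kdm2b*, for a histone demethylase, rose by 1.01 ± 0.09 (adjusted p = 1.60e-05), a change under 2-fold without untreated replicate 1 (0.96) or PGE2 replicate 1 (0.94). Antisense neighbours share some of its exon bases.

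The 12 largest falls under the rule used for the rises came from genes of several kinds. *Aqp9*, for a water and glycerol channel used by memory CD8+ T cells, was at 5.07, 6.34, 4.01 and 3.25 CPM untreated and 0.868, 0.5998, 0.656 and 0.761 CPM with PGE2 (-2.69 ± 0.24, adjusted p = 2.08e-05). *Zfp683* (chromosome 4, positions 134053838 to 134058996), which encodes HOBIT, a factor of tissue-resident lymphocytes, was at 8.05, 11.7, 7.25 and 5.45 CPM and 1.59, 1.62, 1.16 and 1.11 CPM (-2.56 ± 0.24, adjusted p = 2.72e-05). *Igfbp4*, for an insulin-like growth factor binding protein, was at 217, 188, 208 and 162 CPM and 44.3, 38.3, 46.0 and 41.8 CPM (-2.19 ± 0.10, adjusted p = 1.35e-06), the most abundant of these 12. The rule that chose these 12 falls kept only DEGs averaging 1 CPM or more whose groups did not overlap. It left out *Ccl1* (-3.68) and *Il2* (-3.18), which are given with the cytokines. *Car12*, for a carbonic anhydrase, was at 11.5, 14.2, 12.2 and 14.3 CPM and 2.89, 2.49, 2.62 and 3.40 CPM (-2.19 ± 0.13, adjusted p = 2.98e-06). *Srm*, for spermidine synthase, was at 68.2, 71.7, 66.3 and 72.9 CPM and 16.7, 17.3, 15.7 and 23.9 CPM (-1.92 ± 0.12, adjusted p = 2.98e-06). *Dctd*, for deoxycytidylate deaminase, was at 9.78, 12.9, 10.04 and 12.2 CPM and 2.17, 2.19, 2.18 and 4.16 CPM (-2.06 ± 0.22, adjusted p = 5.03e-05). *Srm* and *Dctd* were highest in replicate 4 among treated samples. *Ifrd2* fell by 1.87 ± 0.12, *Trmt61a*, for a tRNA methyltransferase subunit, by 1.95 ± 0.19, *Prag1* by 2.16 ± 0.25, *Tmem163* by 2.16 ± 0.21 and *Tbc1d2* by 1.75 ± 0.21. For *Tmem163* reads may be shared with the antisense gene *Mgat5*, since use of strand in the counting was not given in the sources used here.

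Genes of ribosome biogenesis fell broadly. Of 34 tested genes of the list on ribosome biogenesis and MYC, 27 fell and 3 rose by adjusted p, and 18 were DEGs, all lower, against 1.92% of all genes. The list median was -1.03. *Polr1b*, for a subunit of RNA polymerase I, was at 42.6, 45.8, 38.4 and 47.2 CPM in untreated and 11.8, 12.7, 11.3 and 16.3 CPM in PGE2-treated cells (-1.74 ± 0.12, adjusted p = 4.74e-06). *Gnl3*, for nucleostemin, was at 71.5, 84.1, 58.2 and 77.9 CPM and 19.2, 21.4, 19.6 and 28.5 CPM (-1.71 ± 0.14, adjusted p = 1.13e-05). *Dkc1*, which encodes dyskerin, the pseudouridine synthase of H/ACA particles, was at 128, 132, 109 and 121 CPM and 47.5, 43.5, 36.7 and 47.6 CPM (-1.48 ± 0.09, adjusted p = 2.98e-06). Every treated sample lay below every untreated sample in 26 of the 34 members, these genes included. The box C/D proteins of the list fell as well, *Nop58* by 1.36, *Nop56* (208, 250.01, 210.2 and 257 CPM to 100.1, 106, 100.3 and 126 CPM) by 1.10 ± 0.10 and *Fbl*, for the methyltransferase fibrillarin, by 0.63. The abundant nucleolar proteins fell less, *Ncl* (nucleolin) by 0.53 and *Npm1* (nucleophosmin) by 0.30. Nucleolar factors were also among the abundant DEGs that fell, with *Ddx21* (-1.04 ± 0.10), *Mybbp1a* (-1.12 ± 0.09) and the RNA methyltransferase gene *Nsun2* (-1.08 ± 0.08) among the 8 of highest level. *Ddx21* was under 2-fold without PGE2 replicate 3 (-0.97) and, narrowly, without untreated replicate 2. Of 41 snoRNA genes tested 7 were DEGs that fell. The libraries were enriched for poly(A) RNA, so these counts need not reflect mature snoRNAs.

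*Myc*, the transcription factor that drives this programme in activated T cells, was at 136, 140.2, 121 and 176 CPM in untreated and 64.7, 67.5, 65.6 and 95.5 CPM in treated cells, with no overlap. It fell by 0.97 ± 0.14 (adjusted p = 4.22e-04), just short of 2-fold, and in both groups replicate 4 was the highest. The 3 list members that rose are antagonists of MYC at shared binding sites: *Mxd1* (33.9 to 65.5 CPM, 0.95 ± 0.10, adjusted p = 5.82e-05), *Mxd4* (121 to 231 CPM, 0.93 ± 0.10, adjusted p = 6.72e-05) and *Mxi1* (0.57 ± 0.09, adjusted p = 5.39e-04). *Max*, the common partner, was at a log2 difference of 0.01.

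**Figure D3:**
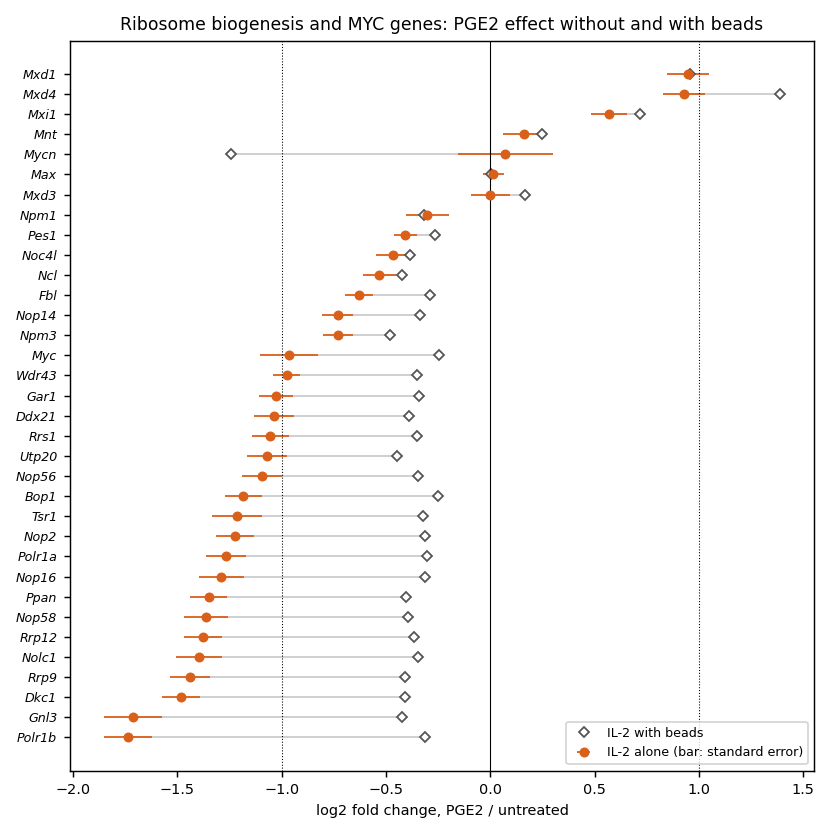
Log2 fold change with PGE2 (horizontal axis) for the 34 tested genes of the list on ribosome biogenesis and MYC, in IL-2 alone (orange circles, bars show the standard error) and in IL-2 with beads (open diamonds). In IL-2 alone the members run from -1.74 (*Polr1b*) to 0.95 (*Mxd1*); of the 27 members that fell, 26 lie closer to 0 with beads.

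Genes of nutrient uptake moved in both directions. *Slc7a5*, for the large neutral amino acid transporter, was at 178, 182, 166 and 194 CPM and 79.5, 64.8, 72.6 and 101 CPM (-1.18 ± 0.12, adjusted p = 3.26e-05). Other amino acid carriers of the mTORC1 and nutrient list also fell, *Slc7a1* by 0.79, *Slc1a5* by 0.58 and *Slc1a4* by 0.88, as did the transferrin receptor gene *Tfrc* (-0.45) and the lactate and pyruvate carrier *Slc16a1* (-0.62). In the same list the glucose transporter *Slc2a3* (451 to 704 CPM, 0.64), the lactate exporter *Slc16a3* (0.52) and *Rptor*, for the mTORC1 scaffold raptor (0.92), rose. Of its 22 tested genes 6 rose and 7 fell (9 and 9 in the paired fit). *Mat2a*, for the synthesis of S-adenosylmethionine, was at 201, 211, 163 and 187 CPM and 89.7, 90.7, 77.1 and 86.0 CPM (-1.15 ± 0.09, adjusted p = 5.90e-06).

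Among serine and one-carbon genes 5 of 19 fell and 1 rose (10 and 4 in the paired fit). *Shmt1*, for cytosolic serine hydroxymethyltransferase, was at 40.5, 42.7, 34.8 and 43.6 CPM and 13.6, 14.0, 12.4 and 17.5 CPM (-1.49 ± 0.11, adjusted p = 6.53e-06), though it shares exon bases with the antisense gene *Smcr8*. *Shmt2*, the mitochondrial form, fell by 0.90, and the serine synthesis genes *Psat1* and *Phgdh* by 0.59 and 0.48.

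In cholesterol synthesis and uptake 14 of 25 fell and 1 rose (20 and 2 in the paired fit), with a median of -0.31. Enzymes from several steps of the pathway fell, including *Idi1* (-0.86), *Sqle* (-0.82), *Cyp51* (-0.76) and *Dhcr7* (-0.79). The member that rose, *Abca1* (0.64), exports cholesterol. *Fdps* was called (-1.18) at only 1.42, 1.67, 1.40 and 1.58 CPM in untreated cells, and its reads may be divided with near-identical copies. Without PGE2 replicate 1 its fall was under 2-fold (-0.94).

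Glycolysis genes leaned the other way. Of 19 tested, 17 had a higher mean with PGE2, 6 rose by adjusted p and none fell (14 and 1 in the paired fit), with a median of 0.20. *Pfkfb4*, for a regulator of phosphofructokinase, was at 3.38, 3.35, 4.07 and 3.50 CPM and 7.27, 8.70, 11.1 and 10.6 CPM (1.40 ± 0.15, adjusted p = 6.72e-05). *Hk1*, for hexokinase 1, rose by 0.43 and *Pfkl*, for a phosphofructokinase subunit, by 0.30.

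The cell cycle lists gave different counts. In DNA replication all 29 tested genes had a lower mean with PGE2, 17 passed as lower (25 in the paired fit) and none rose, with a median of -0.23. *Mcm2*, for a subunit of the replicative helicase, was at 205, 214, 202 and 211 CPM and 149, 133, 124 and 154 CPM (-0.57 ± 0.07, adjusted p = 1.55e-04). *Gins1*, for a further helicase component, fell by 0.43 ± 0.09 (adjusted p = 0.0053). *Ccne1*, for cyclin E1, was at 60.0, 67.1, 62.1 and 67.2 CPM and 42.2, 47.9, 41.8 and 47.5 CPM (-0.52 ± 0.07, adjusted p = 2.23e-04). None of the 24 mitosis genes passed the test, against 28.4% of all genes, and their median was -0.00 (3 higher and 3 lower in the paired fit). Their changes lay between -0.13 and 0.19. Of 15 G1 genes, *Cdk6* (-0.64 ± 0.10, adjusted p = 8.40e-04) and *Ccnd2* (-0.55 ± 0.07, adjusted p = 2.56e-04) fell. So did *Cdk4* (-0.47 ± 0.06, adjusted p = 1.43e-04) and *Ccnd3* (-0.23), while the inhibitors *Cdkn1b* (0.34) and *Cdkn2d* (0.23) rose. In the paired fit 4 G1 genes rose and 5 fell, 1 of the latter as a DEG. The lowest log2 fold change of this list, -1.07, did not pass the unpaired test.

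Cytokine genes that passed the test were all lower with PGE2. This held for 7 of 14 tested cytokines (9 lower and 2 higher in the paired fit) and for 3 of 7 chemokines (5 and 1), with medians of -1.02 and -0.79. *Lta*, for lymphotoxin alpha, was at 40.5, 51.0, 46.8 and 56.2 CPM and 15.1, 17.3, 22.2 and 19.998 CPM (-1.38 ± 0.13, adjusted p = 2.31e-05). *Tnf* fell from a mean of 25.3 to 10.9 CPM (-1.21 ± 0.17, adjusted p = 3.57e-04). *Flt3l*, a growth factor of dendritic cells, fell from 48.6 to 23.9 CPM (-1.02). The groups did not overlap in *Lta*. *Il2* was low in every sample, 0.457, 0.871, 1.63 and 3.53 CPM untreated and 0.0362, 0.02999, 0.119 and 0.489 CPM treated (-3.18 ± 0.76, adjusted p = 0.00903), and its values rested on few reads. The groups of *Il2* overlapped, and its log2 fold change was -2.48 without untreated replicate 4 and -4.62 without PGE2 replicate 4.

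*Ifng*, for interferon gamma, was at 3.52, 5.05, 7.63 and 27.6 CPM in untreated and 0.977, 1.17, 2.48 and 5.87 CPM in treated cells (-2.05 ± 0.68, adjusted p = 0.0431; paired fit, 1.70e-09). Untreated replicate 4 stood far above the rest, and the groups overlapped, while each treated sample was below its numbered partner. The call was lost without untreated replicate 3 (adjusted p = 0.0576), untreated replicate 4 (-1.03, adjusted p = 0.18), or PGE2 replicate 1, 2 or 3 (adjusted p = 0.078, 0.115 and 0.099). With DESeq2 its adjusted p was 0.0554. *Ccl4*, for a chemokine released by activated T cells, was at 8.41, 7.98, 13.2 and 23.8 CPM and 2.03, 1.92, 2.36 and 6.20 CPM (-2.08 ± 0.43, adjusted p = 0.00408). *Ccl3*, its close relative, was at 2.88, 3.42, 5.41 and 11.2 CPM and 0.434, 0.630, 0.805 and 3.83 CPM (-1.98 ± 0.63, adjusted p = 0.0347). Both were highest in replicate 4 of each group. *Ccl3* was lower in each treated sample than in its numbered partner (paired fit, adjusted p = 1.33e-07). The *Ccl3* call was lost without untreated replicate 3 or 4 (adjusted p = 0.0629 and 0.112) or PGE2 replicate 1, 2 or 3 (0.0587, 0.0968 and 0.0954) and with DESeq2 (0.0512). Leaving out PGE2 replicate 4 enlarged the falls, to -3.19 in *Ccl3*, -2.67 in *Ccl4* and -2.82 in *Ifng*. *Ccl1*, the third chemokine, went from 1.14, 1.43, 0.832 and 2.55 CPM to 0, 0.11996, 0.149 and 0.163 CPM (-3.68 ± 0.54, adjusted p = 4.23e-04).

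Cytotoxic genes moved in both directions, 5 of 15 higher and 6 lower. *Fasl*, for the death ligand that engages FAS, rose from 2.93, 3.24, 4.57 and 5.73 CPM to 12.3, 14.5, 17.2 and 17.1 CPM (1.88 ± 0.20, adjusted p = 5.31e-05). *Gzmb*, for granzyme B, was at 549, 773, 738 and 1089 CPM and 295, 373, 398 and 681 CPM (-0.85 ± 0.25, adjusted p = 0.0249), highest in replicate 4 of each group. Its groups overlapped and its call was lost without untreated replicate 2 or 4 (0.0544 and 0.0689) or PGE2 replicate 2 or 3 (0.0772 and 0.0695), and with DESeq2 (0.0521), while the paired fit gave an adjusted p of 4.85e-10. *Gzmk*, for granzyme K, was at 0.594, 0.802, 0.713 and 0.725 CPM and 0.109, 0.360, 0.209 and 0.408 CPM (-1.35 ± 0.36, adjusted p = 0.0158; 0.0519 without PGE2 replicate 3). *Prf1*, for perforin, was at 13.0, 10.1, 6.51 and 6.62 CPM and 11.1, 6.598, 6.98 and 6.52 CPM (adjusted p = 0.568). *Nkg7*, a granule protein gene, was at 226, 226, 209 and 189 CPM and 107, 116, 123 and 106 CPM (-0.91 ± 0.07, adjusted p = 1.05e-05), with the groups apart. The granzyme inhibitors *Serpinb9* (0.83) and *Serpinb6b* (1.05, adjusted p = 0.00672) rose; the latter was under 2-fold without untreated replicate 1 or 2 or PGE2 replicate 3 or 4, at 0.96, 0.96, 0.96 and 0.86. Reads of granzyme and serpin genes may be shared with close relatives.

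Of 23 transcription factors of effector, resident and exhausted T cells, 7 rose and 4 fell (11 and 7 in the paired fit). After *Zfp683* the largest fall was that of *Eomes*, a T-box factor of effector and memory cells, from 25.0, 17.8, 13.0 and 19.6 CPM to 10.5, 5.91, 6.35 and 11.6 CPM (-1.13 ± 0.24, adjusted p = 0.00495), which was under 2-fold without untreated replicate 1 (-0.96) or PGE2 replicate 2 (-0.97). *Tbx21*, for the related factor T-bet, fell by 0.41 and *Ikzf3*, for Aiolos, by 0.53. *Ikzf2*, for Helios (138 to 273 CPM, 0.98), *Stat3* (302 to 584 CPM, 0.95), *Rora* (0.69), *Runx2* (0.49), *Bcl6* (0.47), *Hif1a* (0.45) and *Stat4* (0.36) rose.

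Of 25 genes of quiescence and the naive state, 24 had a higher mean with PGE2, 9 rose and 1 fell (19 and 1 in the paired fit), with a median of 0.17. *Phlpp1*, for a phosphatase that inactivates AKT, was at 37.9, 36.7, 41.1 and 39.5 CPM and 127, 108, 92.3 and 84.4 CPM (1.41 ± 0.11, adjusted p = 9.22e-06). *Bach2*, for a repressor that preserves stem-like T cells, rose from 142 to 212 CPM (0.58 ± 0.07). *Id3*, for an inhibitor of E proteins that is also linked to stem-like cells, fell from 78.3, 61.1, 55.5 and 46.2 CPM to 35.5, 28.4, 27.0 and 23.0 CPM (-1.08 ± 0.16, adjusted p = 4.76e-04). It was below 2-fold without untreated replicate 1 (-0.93) or PGE2 replicate 4 (-0.99). *Lef1*, the relative of *Tcf7*, was at 216 and 217 CPM.

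The IL-2 receptor changed by less than 2-fold in each chain. *Il2ra*, for the high-affinity alpha chain CD25, was at 375, 451, 443 and 661 CPM in untreated and 281, 295, 320.0 and 415 CPM in treated cells (-0.56 ± 0.17, adjusted p = 0.0272; paired fit, 3.07e-08). PGE2 replicate 4 lay above the lowest untreated sample, so the groups overlapped, and the call was lost without untreated replicate 2 or 4 (0.0501 and 0.0553) or PGE2 replicate 1, 2 or 3 (0.0558, 0.0854 and 0.068). *Il2rg*, for the common gamma chain, was at 313, 317, 318 and 298 CPM and 274, 280.3, 279 and 264 CPM (-0.18 ± 0.05, adjusted p = 0.0207). *Il2rb*, for the beta chain, was at 1404, 1434, 1438 and 1382 CPM and 1639, 1511, 1527 and 1518 CPM (0.13 ± 0.06, adjusted p = 0.106; paired fit, 0.0126). Thus the treated samples were all lower in *Il2rg* and all higher in *Il2rb*. The paired fit gave *Il2rg* an adjusted p of 3.22e-04. With DESeq2 *Il2rb* passed as higher (0.14, adjusted p = 0.0368). The *Il2rg* call was lost without untreated replicate 2 or 3 (adjusted p = 0.109 and 0.0526) or PGE2 replicate 2 or 4 (0.0751 and 0.0546).

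Among known STAT5 targets *Pim2*, for a survival kinase, fell from 338, 373, 399 and 447 CPM to 239, 257, 288 and 284 CPM (-0.54 ± 0.09, adjusted p = 0.00107) and *Socs2* by 0.66 ± 0.12 (adjusted p = 0.00167). *Cish* was at 39.4, 50.5, 51.4 and 68.2 CPM and 31.4, 40.5, 55.9 and 58.2 CPM (-0.17 ± 0.20, adjusted p = 0.568; paired fit, 0.0251). The SOCS inhibitor genes moved in both directions, as *Socs1* (51.9, 50.5, 53.9 and 51.1 CPM to 61.9, 68.3, 68.1 and 75.8 CPM, 0.40 ± 0.07, adjusted p = 8.84e-04) and *Socs3* (0.38) rose. The transcription factor *Stat5b* (0.41) and the receptor chains *Il4ra* (0.34) and *Il7r* (0.24 ± 0.06, adjusted p = 0.00756) rose as well. In all, 5 of 18 genes of this list rose and 4 fell.

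Of 17 other cytokine receptor genes 5 rose and 3 fell (7 and 6 in the paired fit). *Il6ra*, for the IL-6 receptor, was at 52.7, 41.1, 30.6 and 20.9 CPM and 21.5, 17.7, 12.3 and 8.75 CPM (-1.27 ± 0.30, adjusted p = 0.00852), with overlap between groups but a lower value in all 4 pairs. Both chains of the interferon gamma receptor rose, *Ifngr1* from 742 to 1189 CPM (0.68) and *Ifngr2* from 24.7 to 48.7 CPM (0.97), as did *Il12rb2*, for a chain of the IL-12 receptor (93.8 to 180.005 CPM, 0.94).

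Of 16 homing receptor genes 3 rose and 1 fell (8 and 3 in the paired fit). *Ccr7*, for the receptor that guides T cells to lymph nodes, was at 1107, 1109, 1168 and 1147 CPM and 1722, 1726, 1788 and 1775 CPM (0.63 ± 0.05, adjusted p = 1.42e-05). *Cxcr4* was at 106, 117, 123 and 133 CPM and 160.4, 179.8, 186 and 189.7 CPM (0.58 ± 0.08, adjusted p = 2.61e-04). Replicates of *Ccr7* varied little and the groups were far apart. *S1pr1*, for the receptor of lymphocyte egress, was at 345, 287, 233 and 178 CPM and 408, 358, 295 and 228 CPM (0.30 ± 0.20, adjusted p = 0.306; paired fit, 2.20e-06), higher in all 4 pairs. *Cd69*, which opposes S1PR1, fell by 0.45 ± 0.12 (adjusted p = 0.0149); without PGE2 replicate 2 its adjusted p was 0.0554.

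In integrins and adhesion 7 of 18 fell and 2 rose (9 and 4 in the paired fit). *Itgae*, for CD103, the integrin of resident T cells in epithelia, was at 194, 195, 191 and 173 CPM and 101, 91.8, 82.9 and 81.4 CPM (-1.08 ± 0.08, adjusted p = 5.63e-06). The chains of the leukocyte integrin LFA-1, *Itgal* (-0.30) and *Itgb2* (-0.29), fell, as did *Itgb1* (-0.72) and the adhesion receptor genes *Cd96*, *Cd226* and *Cd2*. *Itga3*, at a low level, rose from 2.24, 2.37, 3.56 and 4.92 CPM to 6.11, 5.94, 7.55 and 8.94 CPM (1.11 ± 0.24, adjusted p = 0.00519), by less than 2-fold without untreated replicate 1 (0.98) or PGE2 replicate 4 (0.98).

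Checkpoint receptors moved apart, 6 of 17 higher and 4 lower (9 and 6 in the paired fit). *Pdcd1*, which encodes PD-1, was at 8.27, 12.8, 19.8 and 23.3 CPM without and 27.0, 38.8, 66.1 and 61.1 CPM with PGE2 (1.58 ± 0.32, adjusted p = 0.00378). *Ctla4* was at 723, 812, 884 and 924 CPM and 1146, 1250.3, 1321 and 1265 CPM (0.58 ± 0.08, adjusted p = 3.74e-04). In *Pdcd1* replicates 3 and 4 were above replicates 1 and 2 in both groups. *Tigit* (19.8 to 38.5 CPM, 0.96) and *Nt5e*, for the adenosine-producing CD73 (0.77), rose as well. *Lair1*, for an inhibitory collagen receptor, fell from 13.9, 15.6, 12.1 and 11.4 CPM to 4.92, 5.46, 4.06 and 3.10 CPM (-1.60 ± 0.17, adjusted p = 6.34e-05). *Btla* fell from 51.4 to 24.9 CPM (-1.05) and *Cd160*, which shares a ligand with it, by 0.88. *Cd244a* fell at a low level by 1.08 (adjusted p = 0.00633) and was under 2-fold without PGE2 replicate 4 (-0.96). *Havcr2*, for TIM-3, was at 1.23, 2.44, 2.52 and 4.25 CPM and 0.905, 1.41, 2.06 and 3.23 CPM (adjusted p = 0.438; paired fit, 0.0286).

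Costimulatory receptors and the TNF superfamily showed 6 rises and 1 fall among 19 (12 and 3 in the paired fit), with a median of 0.25. *Tnfrsf18*, for GITR, was at 94.8, 113, 159 and 173 CPM and 214, 228, 274 and 264 CPM (0.86 ± 0.17, adjusted p = 0.00273). *Cd7* was at 53.9, 43.5, 40.0 and 29.4 CPM and 87.3, 80.4, 78.3 and 55.4 CPM (0.86 ± 0.17, adjusted p = 0.00348). The groups were apart in both. *Tnfrsf9*, for 4-1BB, was at 139.6, 201, 262 and 432 CPM and 308, 416, 541 and 698 CPM (0.92 ± 0.32, adjusted p = 0.0498; paired fit, 6.35e-10), higher in all 4 pairs with overlap between groups. Its call was lost without any library other than untreated replicate 4 and PGE2 replicate 1 (adjusted p of 0.0636 to 0.124), with DESeq2 (0.089) and with upper-quartile scaling (0.0565).

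Of 7 NK-type lectin receptor genes 2 rose and none fell (5 higher in the paired fit). *Klrd1*, for CD94, rose from 199 to 355 CPM (0.84 ± 0.13, adjusted p = 6.87e-04). *Klrc1*, for its inhibitory partner NKG2A, was at 0.823, 1.22, 1.87 and 2.24 CPM and 1.99, 2.70, 3.58 and 6.93 CPM (1.29 ± 0.39, adjusted p = 0.03), and its reads may be divided with related genes of the cluster. That call was lost without untreated replicate 1, 2 or 3 (adjusted p = 0.0704, 0.079 and 0.0512). It was also lost without PGE2 replicate 3 or 4 (0.0561 and 0.0825), while the paired fit gave 9.28e-06.

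Survival genes were mixed. In the BCL2 family 2 of 15 rose and 5 fell. *Bid*, which links death receptors to mitochondria, was at 24.0, 26.1, 23.5 and 25.6 CPM and 11.9, 11.5, 10.5 and 11.7 CPM (-1.12 ± 0.08, adjusted p = 4.86e-06), and it shares exon bases with the antisense gene *Bcl2l13*. *Bcl2* was at 368, 391, 352 and 405 CPM and 346, 313, 286 and 281 CPM (-0.31 ± 0.08, adjusted p = 0.0116; 0.0564 without untreated replicate 2). The anti-apoptotic *Bcl2l1*, for BCL-XL, fell by 0.79, the pro-apoptotic *Bbc3* and *Bax* by 0.49 and 0.32, and the pro-apoptotic *Bcl2l11*, for BIM, rose by 0.59.

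NF-kB regulators showed 6 rises and 3 falls among 17 (10 and 4 in the paired fit). *Tnfaip3*, which encodes the ubiquitin-editing inhibitor A20, was at 154, 163, 183 and 194 CPM and 349, 338, 349.8 and 337 CPM (0.98 ± 0.07, adjusted p = 6.49e-06). *Traf1* was at 220.0, 239, 257 and 240.1 CPM and 304, 339, 365 and 348 CPM (0.50 ± 0.07, adjusted p = 3.47e-04). Both were separated, and *Tnip2* fell by 0.66 ± 0.14 (adjusted p = 0.00421).

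In the TGF-beta pathway 7 of 20 rose and 2 fell (13 and 3 in the paired fit), with a median of 0.23. *Pmepa1*, a feedback inhibitor of the pathway, was at 25.4, 24.9, 29.6 and 25.6 CPM and 61.3, 63.9, 51.0 and 53.1 CPM (1.12 ± 0.09, adjusted p = 9.08e-06). *Tgfb3*, for a ligand, was at 0.777, 0.941, 1.51 and 1.61 CPM and 1.74, 2.58, 5.10 and 4.999 CPM (1.56 ± 0.36, adjusted p = 0.00778). The receptor genes went opposite ways, *Tgfbr1* at -0.49 and *Tgfbr2* at 0.37.

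Among 26 interferon-stimulated genes 8 rose and none fell (15 and 2 in the paired fit), with a median of 0.30. *Irf7*, a master regulator of type I interferon genes, rose from 27.8 to 51.8 CPM (0.90 ± 0.09, adjusted p = 3.14e-05), and the GTPase gene *Gbp2* rose from 288 to 508 CPM (0.82 ± 0.21, adjusted p = 0.0143). *Ifit3b* reached DEG status at under 1 CPM (1.03, adjusted p = 0.0477), a gene nearly identical to *Ifit3*, and lost it with DESeq2 (0.0807) and without untreated replicate 2, 3 or 4 (0.0567, 0.128 and 0.129) or PGE2 replicate 2, 3 or 4 (0.0876, 0.0883 and 0.132).

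Of 13 clock genes 2 rose and 2 fell. *Per2*, a core repressor of the clock, fell from 7.54, 7.46, 5.55 and 5.45 CPM to 2.17, 2.07, 2.12 and 2.31 CPM (-1.58 ± 0.16, adjusted p = 3.38e-05) while its relative *Per1* rose from 98.8 to 141 CPM. *Nr1d1*, for REV-ERB alpha, fell at a low level (-1.12, adjusted p = 0.00701); it overlaps the antisense gene *Thra*, and its fall was under 2-fold without untreated replicate 2 (-0.92).

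**Figure D4:**
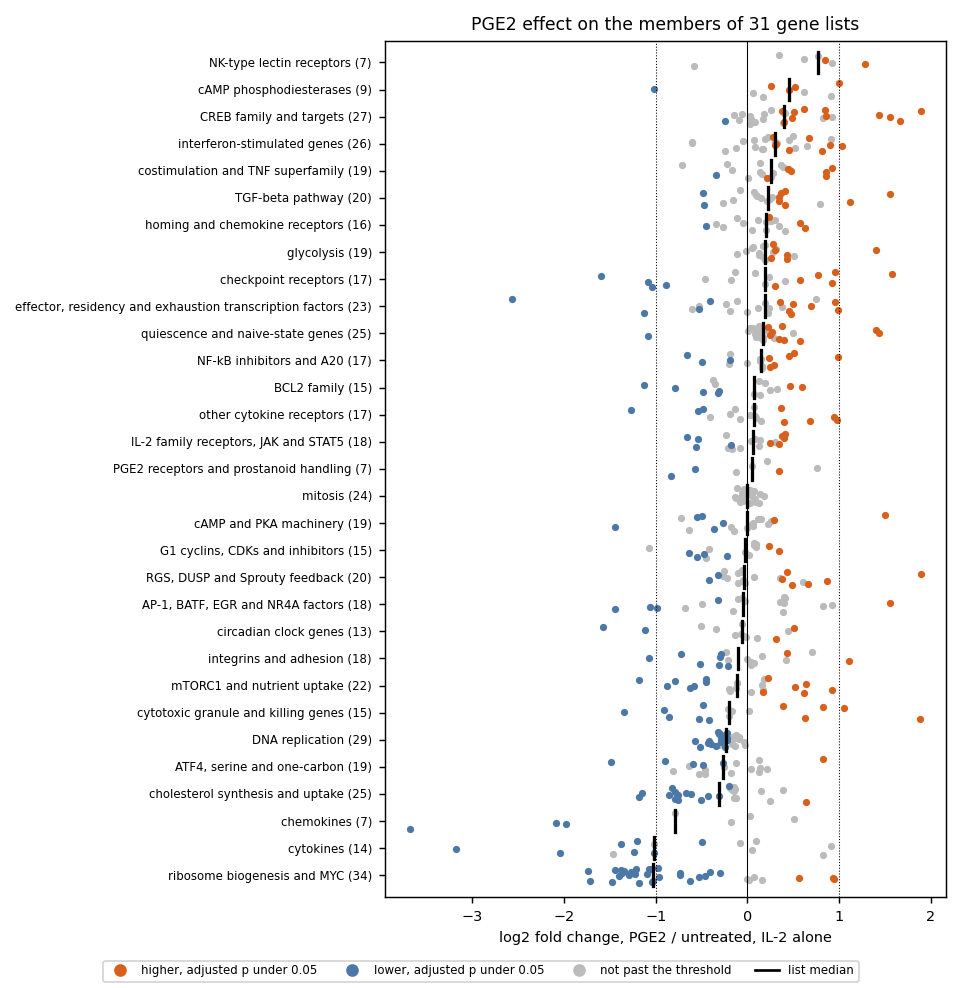
Log2 fold change with PGE2 in IL-2 alone (horizontal axis) of each tested member of 31 gene lists (rows, number tested in brackets, ordered by median); orange and blue points passed an adjusted p of 0.05 as higher or lower, grey points did not, and black bars are list medians. Ribosome biogenesis and MYC (-1.03) and cytokines (-1.02) have the lowest medians; NK-type lectin receptors (0.77) and phosphodiesterases (0.45) the highest.

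The effect of PGE2 in IL-2 alone was then set against its effect when beads were present. The difference between the effects, tested as an interaction over 16 samples, passed an adjusted p of 0.05 for 113 of 15096 genes (0.749%), and for 408 (2.7%) in the paired fit. Of the 118 genes that the naming rules chose, 15 passed; they were picked largely for their change in IL-2 alone, which enters this difference. Differences are given as the effect with beads minus the effect in IL-2 alone. In IL-2 alone 11 of the 15 fell and 4 rose, and 14 of them had a smaller change with beads.

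Within the list on ribosome biogenesis and MYC the median effect was -1.03 in IL-2 alone and -0.34 with beads. The interaction passed for 5 of its 34 genes (15 with a positive and 1 with a negative difference in the paired fit). *Polr1b* changed by -1.74 ± 0.12 in IL-2 alone and by -0.31 ± 0.19 with beads, a difference of 1.44 ± 0.25 (adjusted p = 0.00955). For *Srm* the difference was 1.53 ± 0.28 (adjusted p = 0.0149) and for *Gnl3* 1.30 ± 0.23 (adjusted p = 0.0129). For *Myc* itself the difference, 0.73 ± 0.28, did not pass (adjusted p = 0.364; paired fit, 0.206).

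The rise of *Pdcd1* in IL-2 alone (1.58 ± 0.32) did not pass with beads (-0.19 ± 0.10, adjusted p = 0.259), a difference of -1.75 ± 0.36 (adjusted p = 0.0316). The adjusted p of that difference was 0.0521 to 0.0866 without untreated replicate 2, PGE2 replicate 3 or PGE2 replicate 4 in IL-2 alone, or without replicate 1, 2 or 3 of either group with beads. *Tnfaip3* (0.98 against -0.15) had a difference of -1.12 ± 0.13 (adjusted p = 8.73e-04), and *Rgs2* (1.89 against 0.21) one of -1.67 ± 0.27 (adjusted p = 0.00624). *Ptger2* passed the test in opposite directions, 0.34 ± 0.10 in IL-2 alone and -0.90 ± 0.13 with beads, a difference of -1.23 ± 0.17 (adjusted p = 0.00336). For *Crem* the effects were 1.67 and 1.45, and the difference of -0.21 ± 0.21 did not pass (adjusted p = 0.891); likewise *Zfp683* had effects of -2.56 and -2.37 and a difference of 0.21 ± 0.38 (adjusted p = 0.958), and *Igfbp4* of -2.19 and -2.21 with a difference of -0.01 ± 0.17 (adjusted p = 1).

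**Figure D5:**
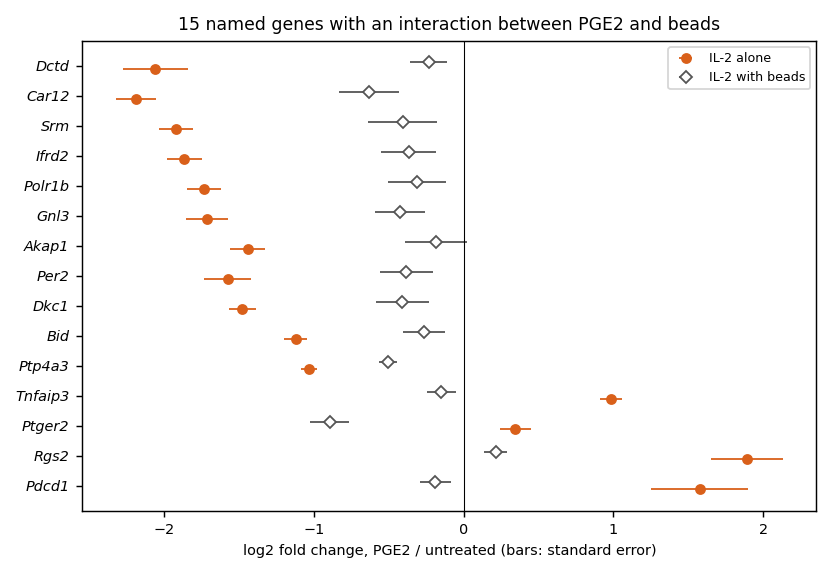
Log2 fold change with PGE2 (horizontal axis, bars show the standard error) in IL-2 alone (orange circles) and in IL-2 with beads (open diamonds) for the 15 named genes whose effects differed by the interaction test. *Ptger2* lies above 0 in IL-2 alone and below 0 with beads, and 11 genes from *Dctd* to *Ptp4a3* fell in IL-2 alone and lie nearer to 0 with beads.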

How the data were processed

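Bulk RNA was sequenced from 16 samples of mouse TCF1+CD8+ T cells, of which the 8 kept in IL-2 alone were compared. Per the submitters' processing notes the authors aligned reads to GRCm38 (mm10) with HISAT2 2.0.5 and counted them with featureCounts 1.5.0-p3, and DESeq2 1.20.0 is named among their tools. The deposited table holds raw counts per gene and FPKM values computed by the authors. The annotation release and the use of strand in counting are not given in the sources used here, and deposited FPKM served only as an alternative.

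Samples were grouped by label. Counts were filtered with filterByExpr (10 counts), scaled by TMM and tested with edgeR 4.0.16 (quasi-likelihood F test) in R 4.3.3, without covariates, on the 8 samples. Genes with adjusted p below 0.05 and at least 2-fold change were DEGs. The interaction used all 16 samples. The test was checked on data simulated with independent samples and few changed genes. That check did not cover the shared replicate differences or the widespread small shifts of these data. Total counts of 22678254 to 36098297 per sample, with a biological coefficient of variation of 0.115, set the precision. Exons of 34 of the 118 named genes share bases with another gene, and for 12 (*Bid*, *Cdk4*, *Dkc1*, *Gnl3*, *Kdm2b*, *Nop56*, *Nr1d1*, *Nsun2*, *Ptger2*, *Ptger4*, *Shmt1* and *Tmem163*) an antisense partner had over 5% of the level of the gene, so reads may be shared.

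Named genes were the 12 largest rises and falls of DEGs that averaged 1 CPM or more and whose groups did not overlap, the 8 most abundant DEGs in each direction, up to 3 members per list by size of change among calls, and a fixed set of receptor, cytokine and transcription factor genes. Further list members given as examples were chosen after their values were seen. The members and the 31 lists were chosen with earlier results of these data known. In all 4 numbers, deviations of same-numbered samples from their group means correlated above 0.1 (0.150 to 0.477, against at most 0.152 between other numbers), so the numbers were taken as pairs. This pairing comes from the data, as the labels do not say what a number stands for, and it was used as an alternative. Further alternatives were RLE and upper-quartile factors, other count filters, DESeq2 1.42.0, limma 3.58.1 on log2 FPKM, other fold thresholds, 1 fit over 16 samples and leaving out single libraries. Promoter sequences are not shown, since the RefSeq table matched fewer than 80% of DEGs and the motif check was therefore void. Values of some named genes are not reported here.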

Additional observations from a re-analysis of the deposited data

Results flagged for a closer look

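In 14 of 236 groups of 4 samples, for the 118 named genes, the highest or lowest sample stood so far from the others that its gap passed Dixon's 95% critical value, and chance gives this in about 1 in 20 groups. Replicate 4 accounted for most of them. Among untreated samples it was highest in *Ifng* (27.6 CPM, others 3.52 to 7.63), *Egr3* (35.6 CPM, others 19.6 to 21.6) and *Cd69* (52.4 CPM, others 39.4 to 40.9) and lowest in *Tmem163* (2.93 CPM, others 4.07 to 4.16). Among PGE2-treated samples it was highest in *Ccl3* (3.83 CPM, others 0.434 to 0.805), *Ccl4* (6.20 CPM, others 1.92 to 2.36), *Egr3* (22.6 CPM, others 6.71 to 9.15), *Cd69* (38.7 CPM, others 28.6 to 29.4), *Myc* (95.5 CPM, others 64.7 to 67.5) and *Dctd* (4.16 CPM, others 2.17 to 2.19). The same-numbered sample of the other group was also the highest for *Ifng*, *Egr3*, *Cd69*, *Ccl3*, *Ccl4* and *Myc*. PGE2 replicate 1 was highest in *Il2rb* (1639 CPM, others 1511 to 1527) and *Prf1* (11.1 CPM, others 6.52 to 6.98). Untreated replicate 3 was highest in *Pmepa1* (29.6 CPM, others 24.9 to 25.6), and PGE2 replicate 3 in *Siah3* (9.84 CPM, others 6.78 to 7.25).

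For 15 named genes the effect of PGE2 differed between cells with beads and cells in IL-2 alone by the interaction test of edgeR. The difference, beads minus IL-2 alone on the log2 scale, was 1.84 for *Dctd*, 1.57 for *Car12*, 1.53 for *Srm*, 1.51 for *Ifrd2*, 1.44 for *Polr1b*, 1.30 for *Gnl3*, 1.27 for *Akap1*, 1.20 for *Per2*, 1.08 for *Dkc1*, 0.87 for *Bid* and 0.54 for *Ptp4a3*, all of which fell in IL-2 alone. It was -1.75 for *Pdcd1*, -1.67 for *Rgs2*, -1.23 for *Ptger2* and -1.12 for *Tnfaip3*, which rose in IL-2 alone. With single libraries left out, *Akap1*, *Bid*, *Dkc1*, *Pdcd1* and *Per2* lost the call in several cases, with adjusted p of at most 0.0892, and *Per2* also lost it with relative log expression factors in edgeR (0.053).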

How the results depend on the processing

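The 490 DEGs became 487 with relative log expression factors, 486 with upper-quartile factors, 594 with no filter on low counts, 344 with at least 10 counts required in every sample, 524 with DESeq2, 544 in 1 fit over all 16 samples, 373 with a test against a 1.5-fold threshold, and 448 to 556 with single libraries left out. On FPKM values, limma called 116 DEGs (36 higher, 80 lower) with log2(FPKM + 1) and 237 (75 higher, 162 lower) with log2(FPKM + 0.1). Requiring at least 10 counts in every sample left 126 DEGs that rose, and the 1.5-fold test 131. With no fold threshold 4122 genes passed (1869 higher, 2253 lower). Without both libraries numbered 4, a setting chosen after seeing the data, 493 DEGs were called, 420 of them among the 490. Counts by adjusted p alone under each alternative were likewise added after seeing the data.

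In the fit with the replicate number as a block, which takes the numbers as pairs, 560 DEGs were called, 6938 genes passed by adjusted p alone and 408 by the interaction. Beyond the changes given with list counts, *Pde8a*, *Cish*, *Havcr2*, *Il2rb*, *Nr4a2*, *Nr4a3*, *S1pr1* and the interaction, the block changed no other call reported here. DESeq2 gave 234 genes for the interaction. Leaving out single libraries gave 44 to 217 interaction genes, with 71 and 44 without untreated replicates 1 and 2, 56 and 49 without PGE2 replicates 2 and 3, 59, 59, 55 and 74 without untreated replicates 1 to 4 with beads, and 52 and 217 without PGE2 replicates 2 and 4 with beads.

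Of 77 named DEGs, 51 kept direction and call under every alternative and 26 did not under at least 1. Outside single omissions, *Ifit3b*, *Ptger2* and *Il2rg* lost the call with no filter on low counts; *Cd69*, *Cxcr4*, *Il7r*, *Ptger2*, *Socs1*, *Kdm2b*, *Pde8a* and *Ifit3b* in the fit over 16 samples. The median of 8 of the 31 lists changed sign under at least 1 alternative: those on PGE2 receptors, cAMP machinery, RGS and DUSP feedback, AP-1 factors, effector transcription factors, IL-2 family receptors, mitosis and G1. With log2(FPKM + 1) the change of 9 called genes was over 1.5 times smaller. Single genes that changed sign had no call: with single libraries left out *Tcf7* ran from -0.10 to 0.16, with -0.07 and -0.10 below 0, *Nr4a1* from -0.27 to 0.13, with 0.07 and 0.13 above 0, and *Prf1* from -0.42 to 0.0043. The causes were not tested. The promoter motif shares planned as a further result are not given, because fewer than 80% of DEGs had a promoter in the table used. Depth of 22678254 to 36098297 reads limits genes below about 1 CPM, and 104 of the DEGs that rose were below it in untreated cells; 4 samples a group limit the rest.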
